A study of Mus musculus with 2 samples.

Results

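Natural killer (NK) and innate lymphoid cells were examined in liver scRNA-seq of WT and N-LKO mice. N-LKO mice carry loxP-flanked Nus1, the gene for NgBR, and albumin-Cre deletes it in hepatocytes, so lymphocytes keep the gene. NgBR is a subunit of cis-prenyltransferase, which makes the lipid carrier dolichol. There was 1 library per group. Both groups were male C57BL6 mice on a Western diet (WD) for 16 weeks by the treatment labels, although the titles write HFD. The WT library (genotype CTRL) came from liver, and the N-LKO library (genotype NgBR KO) from liver plus tumor. How many mice each library holds is not stated, and the preparation mixed hepatocytes with nonparenchymal cells and, in N-LKO, tumor cells. Genotype, tumor tissue and library cannot be told apart, and no difference here has a replicate check.

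The cells were selected on their own transcripts. A barcode needed at least 1000 UMIs (unique molecular identifiers, each a counted transcript), 400 genes and at most 30% mitochondrial UMIs. It also needed a sum of at least 2 UMIs of Ncr1, Klrb1c, Klre1, Gzma and Eomes, no UMI of Cd3e, Cd3d, Cd3g or Themis, and at most 1 UMI of 7 genes of Kupffer, endothelial, stellate and B cells. This gave 207 NK barcodes of 42372 that passed the depth limits, 82 of 20158 in WT and 125 of 22214 in N-LKO. They held 109293 and 199060 UMIs, with a median of 1168 UMIs per barcode in WT and 1383 in N-LKO. Mitochondrial genes took 13.6% of these UMIs in WT and 16.7% in N-LKO, and the ribosomal RNA-like gene Gm42418 took 2.74% and 5.16%. The libraries shared 139 barcode sequences among those passing the limits, and none among NK barcodes.

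NK cells are innate lymphocytes that kill stressed or transformed cells without a rearranged antigen receptor. They read activating receptors such as NKp46, encoded by Ncr1, against inhibitory receptors that bind MHC class I molecules, such as NKG2A and some Ly49 members. Killing is carried out by perforin and granzymes, and activated cells release chemokines and interferon-γ in response to IL-12, IL-15 and IL-18. The mouse liver holds circulating conventional NK cells, which need Eomes and carry Ly49 receptors, and type 1 innate lymphoid cells (ILC1), which are resident and depend more on Tbx21.

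The values of the 5 selection genes chose the members and are given as a description. Levels are given as CPM of the summed NK barcodes, that is, a gene's UMIs scaled to the same total in each library, with exact Poisson 95% intervals that, like all intervals here, cover counting error only. Gzma, a granzyme, stood at 1116 CPM (927 to 1333) in WT and 442 CPM (355 to 545) in N-LKO. Its most loaded barcode held 18 of 122 UMIs in WT and 8 of 88 in N-LKO. Klre1, a lectin-like receptor, stood at 503 and 437 CPM, Ncr1 at 412 and 372 CPM, and Klrb1c, the NK1.1 antigen, at 311 and 427 CPM. Eomes gave 8 and 12 UMIs, and 6 of 82 WT and 10 of 125 N-LKO barcodes held one. Gzma alone carried 15 WT and 9 N-LKO barcodes over the limit, and Klrb1c alone carried 1 and 8. Most members lay at the limit, with 46 WT and 75 N-LKO barcodes at a sum of 2, while 135 and 238 barcodes lay just outside it with a sum of 1. In GRCm38 (GENCODE M21), Ncr1 spans chr7:4337724-4345164, Klrb1c chr6:128778485-128789215, Klre1 chr6:129577905-129585827, Gzma chr13:113093825-113100981 and Eomes chr9:118478212-118486132.

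Markers that the selection did not use were then counted. At least 1 UMI of 10 lymphoid genes (Nkg7, Klrd1, Klrk1, Il2rb, Prf1, Gzmb, Ccl5, Txk, Xcl1 and Tbx21) occurred in 98.8% of the WT barcodes (93.4 at the lower bound) and in 95.2% of those from N-LKO (89.8 to 98.2). T barcodes, defined by at least 2 CD3 or Themis UMIs and no NK gene, had 86.0% and 83.8%, and endothelial barcodes, which should lack these genes, 9.40% and 14.4%. Barcodes with 1 UMI of the selection genes had 61.5% and 76.1%. Clnk and Klrb1b were named after their values in NK and T barcodes had been seen. Among genes not used for selection, Clnk, an adaptor of immune receptor signalling, had the largest excess over T barcodes by the smaller of its ratios in the 2 libraries. It had 265 CPM in NK against 11.1 in T barcodes of WT, and 296 and 21.8 in N-LKO. Klrb1b, an inhibitory NK receptor, had 156 against 7.40 CPM in WT and 191 against 14.2 in N-LKO.

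**Figure D1:**
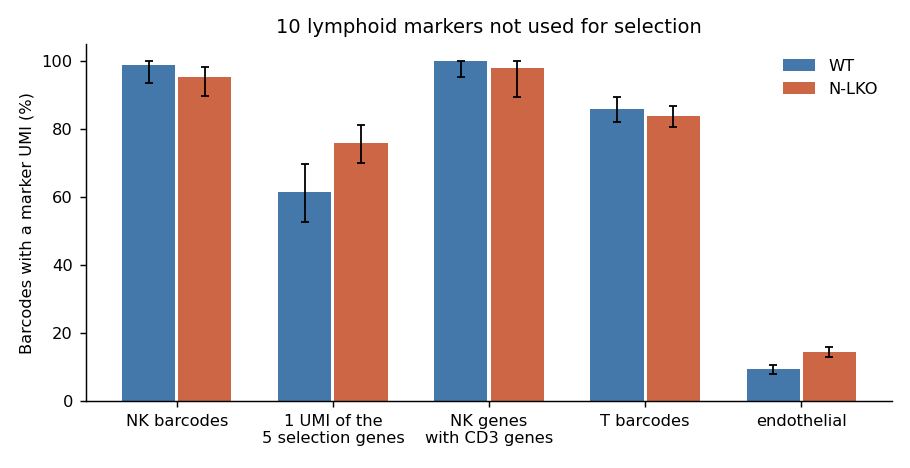
Share of barcodes (%) with at least 1 UMI of 10 lymphoid markers that were not used for selection, by cell set and library. Bars are shares and error bars exact 95% binomial intervals. NK barcodes stand at 98.8% in WT and 95.2% in N-LKO, and endothelial barcodes at 9.40% and 14.4%.

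Markers of other lymphoid lineages were sparse. The 7 ILC2 markers summed to 4 UMIs in WT and 9 in N-LKO, and all of these were Gata3. The 6 ILC3 markers summed to 8 and 17 UMIs, of which Kit gave 6 and 15. Transcripts of the T cell receptor constant genes Trac, Trbc1 or Trbc2 occurred in 25.6% of NK barcodes in WT and 26.4% in N-LKO, against 52.7% and 39.6% of T barcodes and 1.48% and 3.41% of endothelial barcodes. Trac itself gave 3 and 5 UMIs, and the rest came from the beta constant genes, whose unrearranged transcripts NK cells are known to make. T cells whose CD3 went undetected cannot be told apart from NK cells here. Leaving out every barcode with such a UMI kept 61 WT and 92 N-LKO barcodes, and each list ratio stayed within its counting interval.

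The promoters of 15 genes, the selection genes and the 10 lymphoid markers, were looked up in RefSeq (GRCm38.p6), and 12 had an entry. Within the 250 bases before the start site, the RUNX core TGTGGT occurred on either strand in 10 of the 12, against 14.0% of all 32851 promoters. The T-box core GTGTGA, read by Eomes and T-bet, occurred in 4, against 12.3%, and the ETS core GGAAGT in 5, against 19.7%. These genes were picked as NK markers, the letters can overlap, and a match is a string of letters and not a measured site. The promoter of a receptor gene used for selection and those of 2 effector genes are printed with all matches in capitals. Ncr1 held 1 T-box and 2 RUNX cores, Gzma 1 RUNX core, and Xcl1 1 of each.
Ncr1, chr7:4337465-4337714, forward strand: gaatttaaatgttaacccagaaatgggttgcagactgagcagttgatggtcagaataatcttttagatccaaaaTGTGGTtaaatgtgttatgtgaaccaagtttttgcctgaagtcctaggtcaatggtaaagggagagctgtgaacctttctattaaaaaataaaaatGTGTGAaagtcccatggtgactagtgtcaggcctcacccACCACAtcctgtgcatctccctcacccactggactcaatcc
Gzma, chr13:113100982-113101231, reverse strand: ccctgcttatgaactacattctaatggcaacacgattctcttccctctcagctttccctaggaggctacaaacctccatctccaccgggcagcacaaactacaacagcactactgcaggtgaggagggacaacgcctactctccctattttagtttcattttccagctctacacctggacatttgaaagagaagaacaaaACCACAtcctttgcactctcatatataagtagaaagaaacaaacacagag
Xcl1, chr1:164935523-164935772, reverse strand: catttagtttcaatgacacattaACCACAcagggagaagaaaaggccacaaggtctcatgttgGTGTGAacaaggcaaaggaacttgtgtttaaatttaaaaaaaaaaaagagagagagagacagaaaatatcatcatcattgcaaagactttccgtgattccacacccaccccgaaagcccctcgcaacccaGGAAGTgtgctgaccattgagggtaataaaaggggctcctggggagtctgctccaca

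Of all filtered barcodes, 0.407% (0.324 to 0.505) were NK barcodes in the WT library and 0.563% (0.469 to 0.670) in the N-LKO library, which differ by 0.156 percentage points (0.0229 to 0.289). This share depends on how many hepatocytes and tumor cells were loaded. A UMI of the leukocyte gene Ptprc was held by 4977 of 20158 filtered barcodes in WT and 10619 of 22214 in N-LKO. This reference set thus made up unlike parts of the 2 libraries. Of these barcodes, 56 in WT (1.13%) and 102 in N-LKO (0.961%) were NK barcodes. The shares differed by −0.165 points (−0.538 to 0.164). There were 20.9 NK barcodes per 100 T barcodes in WT and 22.5 in N-LKO, a ratio of 1.08 (0.784 to 1.49). Neither the share among Ptprc barcodes nor the ratio to T barcodes differed beyond counting error, and with a mitochondrial limit of 10% the difference in the share of all barcodes was −0.0151 points. Barcodes with NK genes and at least 1 CD3 or Themis UMI, a set that NKT cells, activated CD8 T cells and pairs of cells can fill, stood at 20.1 per 100 T barcodes in WT and 8.99 in N-LKO, a ratio of 0.447 (0.30 to 0.662).

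N-LKO NK barcodes also carried more RNA of other immune cells. At least 10 UMIs of a Kupffer and macrophage, B and plasma, neutrophil and monocyte or dendritic list were found in 3 of 82 WT barcodes (3.66%) and 27 of 125 N-LKO barcodes (21.6%), which differ by 17.9 points (8.84 to 26.3). The same count over T barcodes was 6.87% and 16.2%. Both counts used UMIs before thinning, so the libraries are not matched for depth in them. The dendritic list, of which Cd74 and H2-Aa of the MHC class II pathway gave most UMIs, accounted for 3 and 18 of the barcodes. The Kupffer list accounted for 1 and 8, the B and plasma list for 0 and 5, and the neutrophil list for 0 and 3. Of the Kupffer list, Lyz2 had 29 UMIs in WT and 115 in N-LKO, C1qb 4 and 47, and C1qc 4 and 36, and the neutrophil gene S100a8 had 0 and 48. Some listed genes took part in the selection, so these lists are not independent of it. They are Clec4f, Vsig4 and Cd5l of the Kupffer list and Ebf1 of the B and plasma list. Stab2 and Ptprb of the endothelial list and Dcn of the stellate list also took part. The endothelial and stellate lists summed to 18 and 5 UMIs in WT and 61 and 17 in N-LKO. For the endothelial list these are 165 and 306 CPM, and free RNA would give 165 and 286. For the Kupffer list free RNA would give 347 of 576 CPM in WT and 609 of 1447 in N-LKO. For the dendritic list it would give 132 of 668 and 406 of 2170 CPM. The 27 N-LKO barcodes had a median of 2109 UMIs, against 1259 in the other 98. Results below are therefore also given without these barcodes, a choice made after the data had been seen, which leaves 79 WT and 98 N-LKO barcodes. In that set the share of filtered barcodes differed by 0.0493 points (−0.0752 to 0.173), and the NK to T ratio was 0.877 (0.627 to 1.23). Scrublet scores of at least 0.25, which mark likely doublets, were found in 9 WT and 2 N-LKO barcodes, and these were kept.

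**Figure D2:**
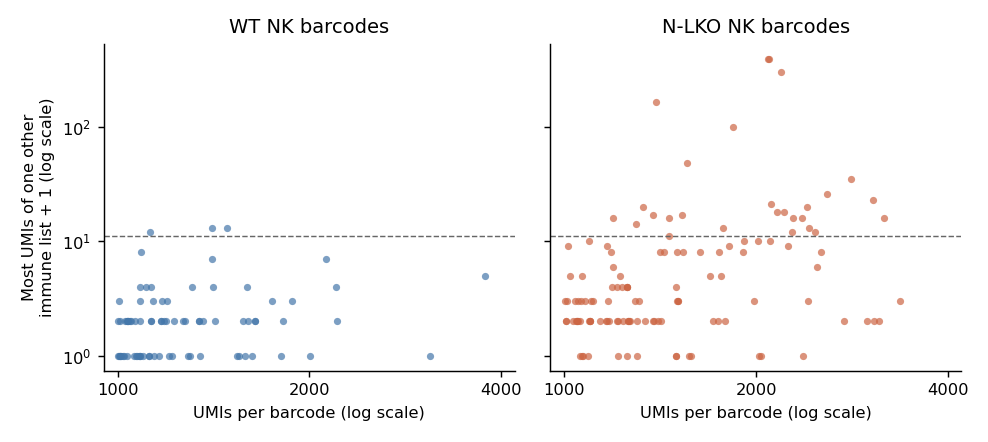
Each point is 1 NK barcode, with its UMIs on the horizontal axis and, on the vertical axis, the most UMIs it held of any of 4 lists of other immune cells, plus 1 (both log scales). The dashed line marks 10 UMIs, reached by 3 WT and 27 N-LKO barcodes.

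A gene was counted as changed when its CPM in N-LKO was at least 2-fold above or below that in WT. The log2 ratios (N-LKO to WT) include a pseudocount of 0.5 UMI. Of 1792 genes with at least 30 UMIs over both libraries, 914 were higher and 878 lower. At least 2-fold, 208 (11.6%) rose and 200 (11.2%) fell, and the median log2 ratio was 0.03. The counts of the lists below stand beside these shares. Without the barcodes of other immune lists, 109 of 1335 genes rose and 158 fell, of which 85 and 140 were also among the 208 and 200. Up to 56.0% of NK UMIs in WT and 54.8% in N-LKO could be RNA free in the suspension, estimated from 20 hepatocyte markers. The level that this would give each gene is stated where it matters.

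Ccl5 and Xcl1 were the listed chemokine genes that fell in N-LKO. Ccl5, the NK marker outside the selection with the most UMIs, stood at 3504 CPM (3162 to 3873) in WT and 1748 CPM (1569 to 1942) in N-LKO, with a log2 ratio of −1.0 (−1.22 to −0.79). After thinning every barcode to 1000 UMIs, 84.1% of WT and 66.4% of N-LKO barcodes held a Ccl5 UMI, against 4.70% and 7.26% of endothelial barcodes. The ratio of Ccl5 lies at the 2-fold limit and was −0.87 without the barcodes of other immune lists and −0.92 without those of high Scrublet score, so its call did not hold in either set. Xcl1, the chemokine that attracts cross-presenting dendritic cells, fell from 238 to 111 CPM (26 and 22 UMIs), with a log2 ratio of −1.10 (−1.99 to −0.23), and was at −0.84, short of 2-fold, without the barcodes of other immune lists. Thinned, 17.1% of WT and 11.2% of N-LKO barcodes held an Xcl1 UMI, and the difference of −5.87 points (−16.4 to 3.56) was within counting error. Ccl4, another chemokine, had 256 and 226 CPM, at −0.19 (−0.89 to 0.55), and 15 of its 28 WT UMIs sat in 1 barcode.

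Over the 14 listed cytokines and chemokines, 5 had at least 30 UMIs. Of these, Ccl5 and Xcl1 fell, Cxcl2 rose and 2 did not reach 2-fold. The median of the 5 was −0.19, and the list's summed UMIs, of which Ccl5 gave most, had a log2 ratio of −0.76 (−0.95 to −0.58), and −0.72 without the barcodes of other immune lists. Without Ccl5 the list had 87 UMIs in WT and 156 in N-LKO, at −0.026 (−0.41 to 0.37), so the sum rested on this gene. Cxcl2, a neutrophil attractant made by myeloid cells, had no UMI in WT and 35 in 10 N-LKO barcodes, which is at least 6.41-fold higher against a limit of 3 UMIs over the WT group. Without the barcodes of other immune lists 7 of these UMIs remained, in 5 barcodes. T barcodes of the same libraries, which share this library contrast, gave −1.34 (−1.42 to −1.27) for the list and −1.45 for Ccl5. With a minimum of 2000 UMIs per barcode the list stood at 1.04, from 6 WT and 30 N-LKO barcodes.

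The cytotoxic list is given beside Gzma and Gzmb, and a difference between them was not tested. Of 16 cytotoxic granule and death ligand genes, 5 passed the minimum and none reached 2-fold, and the list's sum gave −0.12 (−0.39 to 0.15). Nkg7, needed for granule release, had 357 CPM in WT and 261 in N-LKO, at −0.45 (−1.08 to 0.19). Srgn, the granule proteoglycan serglycin, had 229 and 412 CPM, at 0.83 (0.19 to 1.56), and Ctsc, a protease that activates granzymes, had 101 and 171 CPM, at 0.72 (−0.25 to 1.89). Gzmb, granzyme B, lies below the gene minimum and was named after its values were seen. It had 165 CPM in WT and 55.3 in N-LKO (18 and 11 UMIs), at −1.55 (−2.80 to −0.41). Gzmb was at −0.28 without barcodes that held a T cell receptor constant gene, and at −1.01 (−2.35 to 0.21) without the barcodes of other immune lists. Gzma, which took part in the selection, was at −1.33. Over the 12 NK markers outside the selection, 10 passed the minimum, 7 were lower, 2 of them at least 2-fold, and the median was −0.31, against 0.03 over all genes. Their sum gave −0.44 (−0.58 to −0.30), of which Ccl5 held 383 of 717 UMIs in WT and 348 of 964 in N-LKO. Without Ccl5 the sum was at 0.017 (−0.18 to 0.21), so the lower sum also rested on this gene, and with the minimum of 2000 UMIs the whole sum was at 0.47.

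**Figure D3:**
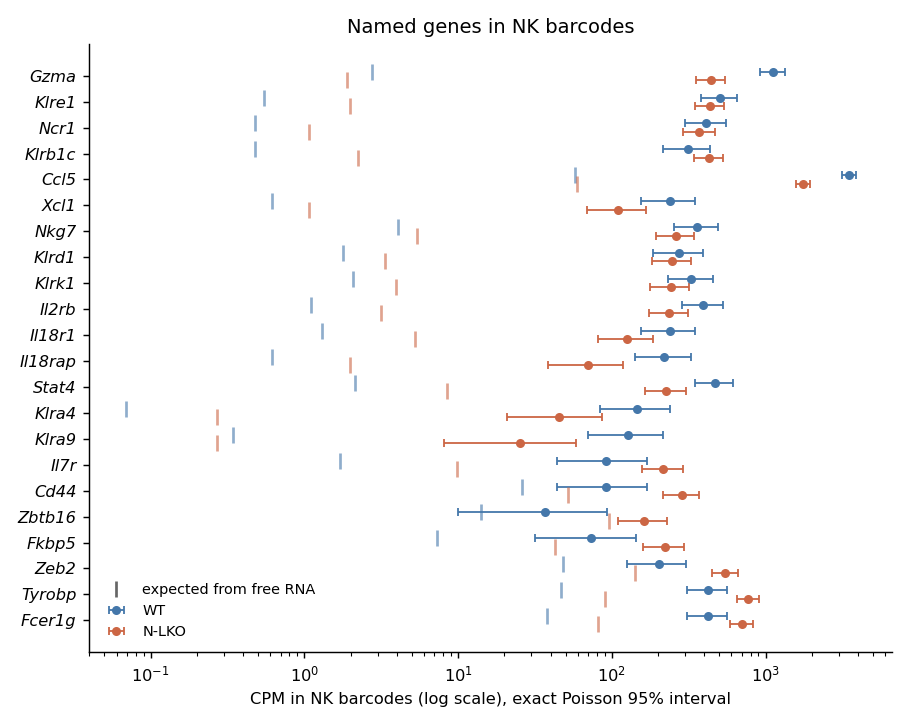
CPM (log scale) of 22 named genes over the summed NK barcodes of each library. Points are levels, error bars exact Poisson 95% intervals, and vertical ticks the level expected if all hepatocyte RNA in these barcodes were free RNA. Ccl5 stands at 3504 in WT and 1748 in N-LKO, and Cd44 at 91.5 and 286.

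Receptors for MHC class I were counted by family, and a difference between families was not tested. The Ly49 genes, whose near-identical copies can share reads so that single members are uncertain, summed to 52 UMIs in WT and 47 in N-LKO, or 476 and 236 CPM. Their log2 ratio was −1.01 (−1.61 to −0.41), and −0.88 without the barcodes of other immune lists. No single Ly49 gene reached 30 UMIs. Klra4 gave 16 and 9 UMIs, Klra8 gave 13 and 13, and Klra9, named after its values were seen, gave 14 and 5. Thinned to 1000 UMIs, a Ly49 UMI remained in 28.0% of NK barcodes in WT and 19.2% in N-LKO, against 0.547% and 0.701% of endothelial ones, and the difference of −8.85 points (−20.9 to 2.73) was within counting error. With the minimum of 2000 UMIs the family stood at 0.40, and with a mitochondrial limit of 10% at −3.01.

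The inhibitory and checkpoint list gave 0.17 (−0.20 to 0.55). Klrd1, the CD94 chain, had 274 and 246 CPM (−0.17, −0.84 to 0.55), and Klrb1b gave 0.27 (−0.56 to 1.21). Of its 15 genes only these 2 passed the minimum, and neither reached 2-fold. Among 19 activating receptors and adaptors, 8 passed the minimum, 3 were higher, 5 were lower and none reached 2-fold, with a median of −0.03 and a sum of the other sign at 0.17 (−0.03 to 0.37). Cd244a, a receptor of the SLAM family, gave 0.78 (−0.35 to 2.19). Tyrobp, the DAP12 adaptor, had 421 CPM in WT and 769 in N-LKO, at 0.86 (0.38 to 1.38), and Fcer1g, the adaptor of the Fc receptor, gave 0.72 (0.24 to 1.24). Myeloid cells also make both adaptors. T barcodes gave 1.15 and 1.06 for them, and without the barcodes of other immune lists the NK values were 0.74 and 0.35.

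Genes that carry cytokine signals split. Stat4, which relays IL-12, fell from 467 to 226 CPM (51 and 45 UMIs), a log2 ratio of −1.04 (−1.66 to −0.44), and −0.64 with a minimum of 500 UMIs per barcode. Il18rap, a chain of the IL-18 receptor, fell from 220 to 70.3 CPM (24 and 14 UMIs), at −1.62 (−2.71 to −0.63). The other chain, Il18r1, named after its values were seen, gave −0.92 (−1.77 to −0.07). It was not stable, at −1.94 without T cell receptor UMIs and −0.69 (−1.58 to 0.18) without the barcodes of other immune lists. Il18r1 was at −0.18 (−0.85 to 0.50) with a minimum of 500 UMIs and 0.16 with a mitochondrial limit of 10%. Thinned, 23.2% of WT and 6.40% of N-LKO barcodes held an Il18rap UMI, against 0.492% and 1.20% of endothelial ones. A Stat4 UMI was held by 29.3% of WT and 24.0% of N-LKO thinned barcodes. That difference of −5.27 points (−17.8 to 6.71) was within counting error. In T barcodes the ratios of Stat4 and Il18rap were −0.52 (−0.83 to −0.21) and −0.40 (−1.11 to 0.33). Il2rb, the shared IL-2 and IL-15 receptor chain, had 393 and 236 CPM, and 31.7% and 21.6% of thinned barcodes held it.

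In the other direction, Il7r, the IL-7 receptor that marks ILC1 and naive T cells, rose from 91.5 to 216 CPM (10 and 43 UMIs), at 1.19 (0.22 to 2.4), and gave 0.12 in T barcodes. Thinned, 8.54% of WT and 16.8% of N-LKO barcodes held an Il7r UMI, and the difference of 8.26 points (−1.51 to 16.9) was within counting error. Tgfbr1, a receptor for TGF-β, rose at 1.74 (0.59 to 3.37) from 6 and 39 UMIs. Jak1 gave −0.47 (−0.97 to 0.04). Over the 22 genes of this list, 9 passed the minimum, 2 fell, 2 rose, the median was −0.47, and the sum stood at −0.28 (−0.49 to −0.06). Without the barcodes of other immune lists, Stat4 stood at −1.12, Il18rap at −1.36, Il7r at 1.18 and Tgfbr1 at 1.20 (−0.08 to 2.89). With a mitochondrial limit of 10%, Stat4 and Il18rap were at −1.35 and −1.12. At that limit Tgfbr1 was at 0.16 (4 and 4 UMIs) and Il7r at −2.64 (3 and 0 UMIs). With the minimum of 2000 UMIs the list's sum was 0.40.

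Of 23 transcription factors, 15 passed the minimum, 8 were higher, 7 lower, and 2 reached 2-fold, both of them upward, with a median of 0.11. Among all 1792 genes, 914 were higher and 11.6% rose at least 2-fold, so the counts of this list lie near those of all genes. Zeb2, which drives late NK maturation and is also made by myeloid and endothelial cells, rose from 201 to 548 CPM, at 1.42 (0.77 to 2.18). Without the barcodes of other immune lists Zeb2 was at 0.62 (−0.12 to 1.44), so its call rested on those barcodes. Zbtb16, or PLZF, a factor of innate-like lymphocytes that glucocorticoids also induce, had 4 UMIs in WT, spread over 4 barcodes, and 32 in N-LKO, spread over 27, and its ratio was 1.99 (0.64 to 4.10). Its level of 161 CPM in N-LKO stood beside 95.7 CPM expected from free RNA. Tox, which NK cell development needs, had 595 and 728 CPM, at 0.29 (−0.14 to 0.74).

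Of 15 ILC1 genes, 8 had at least 30 UMIs. All 8 of these were higher in N-LKO, 3 of them (Il7r, Tmem176a and Tmem176b) at least 2-fold, with a median of 0.73. These 3 reached 30 UMIs mainly through N-LKO, with 10 and 43, 9 and 41, and 5 and 25 UMIs in WT and N-LKO. With a gene minimum of 20 UMIs the median was 0.62 over 9 genes, and with 1 UMI it was 0.73 over 14. Among all 1792 genes, 914 were higher and 11.6% rose at least 2-fold. The summed list gave 1409 CPM in WT and 2150 in N-LKO, at 0.61 (0.34 to 0.88), and 0.61 without the barcodes of other immune lists. In T barcodes the sum gave −0.01 (−0.14 to 0.11). Inpp4b, a phosphatase of phosphoinositide signalling with the most UMIs of the list, had 531 and 683 CPM (0.36, −0.09 to 0.83). Rora, a nuclear receptor needed by several innate lymphoid cells, had 128 and 236 CPM, at 0.85 (−0.0034 to 1.86). Tmem176a had 82.3 CPM in WT and 206 in N-LKO, of which 34.5 and 87.0 could be free RNA. Tmem176b had 45.8 and 126 CPM, of which 38.9 and 96.5 could be free RNA. The list of 18 conventional NK genes gave 0.04 (−0.26 to 0.36), with 2 members past the minimum, Zeb2 and Irf8, a factor of NK maturation and of dendritic cells that was at 0.80 (−0.16 to 1.97).

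Barcodes could not be assigned to conventional NK cells or ILC1 by these lists. After thinning to 1000 UMIs, 57.3% of NK barcodes in WT and 83.2% in N-LKO held a gene of the ILC1 list, as did 70.7% and 70.0% of endothelial and 76.1% and 78.2% of T barcodes. The WT share lies below that of cells that are not ILC1, so a UMI of this list does not mark a barcode as ILC1. Free RNA would give 183 of the list's 1409 CPM in WT and 353 of 2150 CPM in N-LKO. A gene of the conventional NK list was held by 41 of 82 NK barcodes in WT, 57.6% in N-LKO, and 42.4% and 54.4% of endothelial ones. Side genes with a UMI in at least 1% of endothelial barcodes were then left out, after the data had been seen. The conventional NK genes that remained, which include 6 Ly49 genes, occurred in 34.1% of WT (24.0 to 45.4) and 26.4% of N-LKO NK barcodes (18.9 to 35.0), in 8.14% and 4.14% of T barcodes and in 0.711% and 0.802% of endothelial ones. The difference was −7.75 points (−20.6 to 4.79). Only 5 ILC1 genes remained, and 3.66% and 5.6% of NK barcodes held one.

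**Figure D4:**
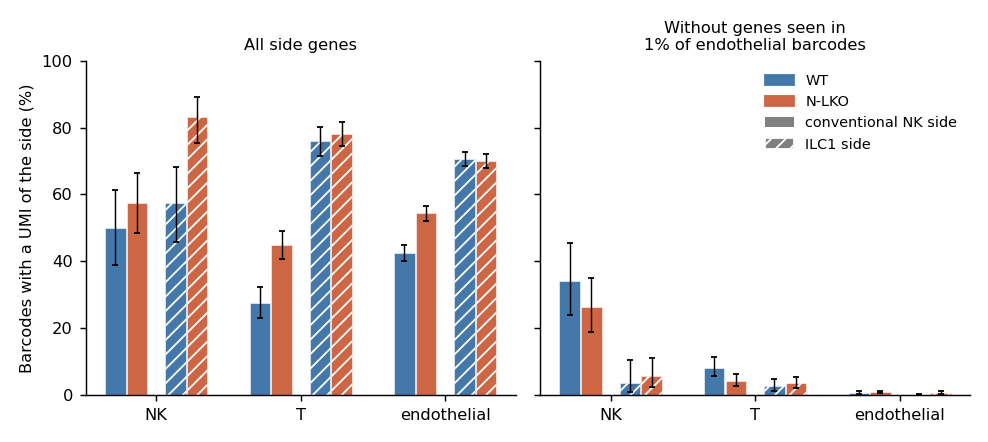
Share of barcodes (%) with at least 1 UMI of the conventional NK list (plain bars) or the ILC1 list (hatched bars) after thinning to 1000 UMIs, in NK, T and endothelial barcodes of each library. Error bars are exact 95% binomial intervals. With all genes the 3 cell sets overlap, and without genes seen in endothelial barcodes the conventional NK list stands at 34.1% and 26.4% in NK and under 1% in endothelial barcodes.

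Of 23 trafficking and adhesion genes, 9 passed the minimum and 1 reached 2-fold, with a median of −0.14 and a sum of the other sign at 0.12 (−0.11 to 0.35). Cd44, the hyaluronan receptor of activated and memory lymphocytes, rose from 91.5 to 286 CPM (10 and 57 UMIs), at 1.59 (0.66 to 2.78), and 0.80 where a sum of 3 UMIs of the selection genes was asked for. It was found in 7.32% and 21.6% of thinned NK barcodes and in 4.76% and 11.8% of endothelial ones, and stood at 1.22 without the barcodes of other immune lists. T barcodes gave 0.91 (0.51 to 1.34). Itga4 and Itgb1, the chains of VLA-4, gave −0.24 and −0.14. Ccr2, the receptor for a monocyte chemokine, gave 0.80 (−0.16 to 1.97).

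Of 12 glucocorticoid-responsive genes, 5 passed the minimum and 3 rose, namely Fkbp5, Zbtb16 and Il7r, with a median of 1.19. Among all genes, 11.6% rose at least 2-fold. Fkbp5, a chaperone that restrains the glucocorticoid receptor, had 73.2 CPM in WT and 221 in N-LKO, at 1.52 (0.49 to 2.89), and 0.66 where a sum of 3 UMIs of the selection genes was asked for. The list's sum gave 0.91 (0.52 to 1.35) in NK barcodes, 0.95 without the barcodes of other immune lists, and 0.75 (0.58 to 0.92) in T barcodes. In the list of 23 stress genes (immediate early genes and heat shock chaperones), which cell isolation can induce, Junb and Fos rose, at 1.52 and 1.46, and 9 others past the minimum did not reach 2-fold. Without the barcodes of other immune lists Junb and Fos were at 0.95 and 0.84, so neither call held. The chaperones Hsp90ab1 and Hspa8, with the most UMIs of the list, gave −0.015 (−0.37 to 0.35) and 0.26 (−0.17 to 0.71). Of 34 interferon-stimulated genes, 5 passed the minimum and none reached 2-fold, with a sum at −0.12 (−0.41 to 0.18). Bst2, or tetherin, and Trim30a were both at −0.87, and Ifi203 was at 0.51 (−0.45 to 1.64). The 20 cell cycle genes gave −0.55 (−0.85 to −0.25), with 3 past the minimum and none at 2-fold, and the chromatin genes Hmgb2 and H2afz, which resting cells also make, gave −0.76 and −0.53.

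**Figure D5:**
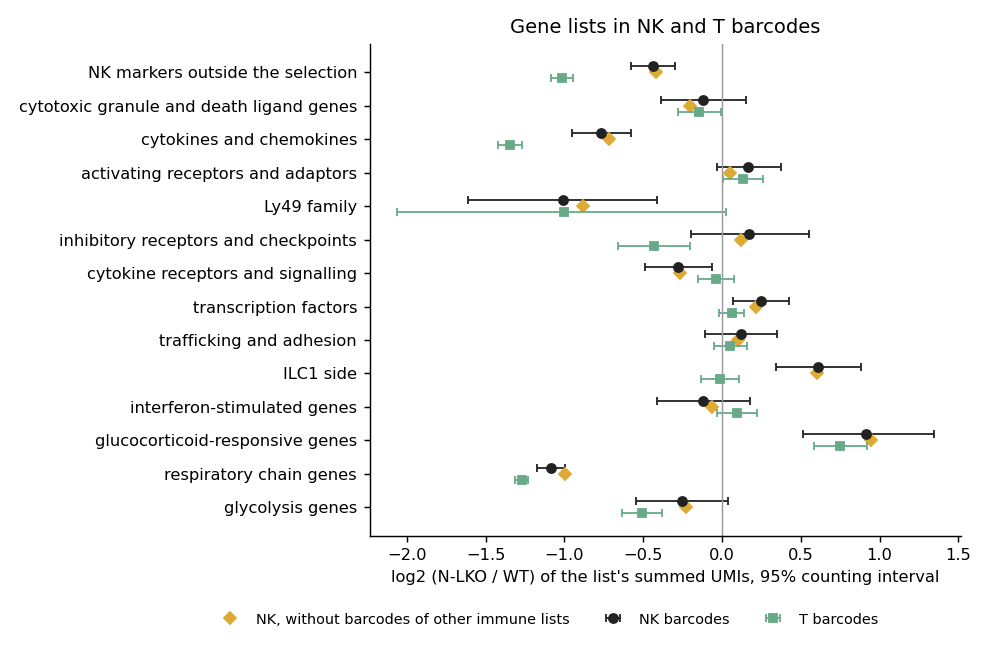
Log2 ratio (N-LKO over WT) of the summed UMIs of 14 gene lists. Circles are NK barcodes and squares T barcodes, both with 95% counting intervals, and diamonds are NK barcodes without those that held other immune lists. Cytokines and chemokines stand at −0.76 in NK and −1.34 in T barcodes, and the ILC1 side at 0.61 and −0.01.

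Of 45 respiratory chain genes, 42 passed the minimum and all of these were lower in N-LKO, with 25 at least 2-fold lower and a median of −1.06. Among all 1792 genes, 878 were lower and 11.2% fell at least 2-fold. The list's sum gave −1.09 (−1.17 to −0.997) in NK barcodes. T barcodes gave −1.27 (−1.31 to −1.23), with a median of −1.26 over 45 genes, so the lower values were not particular to NK barcodes. Uqcr10, a subunit of complex III, fell from 586 to 151 CPM, at −1.95 (−2.63 to −1.31), while free RNA alone would give 524 and 130 CPM. Ndufc1, of complex I, fell at −1.77 (−2.65 to −0.97), and Uqcrq and Cox4i1, with the most UMIs of the list, gave −0.88 and −0.58. For the whole list, free RNA would give 18326 of the 20724 CPM in WT and 5553 of the 9766 CPM in N-LKO. After that expectation was subtracted the list's ratio was 0.54, so a lower level in NK cells themselves is not shown. Glycolysis genes gave −0.26 (−0.54 to 0.04), with Gapdh at −0.56 and Ldha at −0.47. Of the 6 past the minimum Tpi1 fell, at −2.09 (−3.36 to −1.01), but was at −0.81 with a minimum of 500 UMIs per barcode, and Pkm rose, at 1.11 (−0.13 to 2.77).

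Ratios also followed the genomic span of the genes (GENCODE M21, GRCm38). In the fifth of genes with the shortest spans, at a median of 3.78 kb, the median log2 ratio was −0.42, and it was 0.45 in the fifth with the longest, at a median of 230 kb. T barcodes gave −0.52 and 0.61. The median span of the listed genes past the minimum was 2.10 kb for cytokines and chemokines and 5.89 kb for the NK markers. It was 6.61 kb for respiratory chain genes, 26.8 kb for the ILC1 list and 36.3 kb for cytokine receptors. Glucocorticoid-responsive genes had 56.5 kb and transcription factors 122 kb. The part of span in these list ratios was not tested.

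Nus1 itself (chromosome 10, from 52417547 to 52440183 in GRCm38) had 12 UMIs in WT, over 11 barcodes, and 14 in N-LKO, each in its own barcode, or 110 CPM (56.7 to 192) and 70.3 CPM (38.5 to 118). The log2 ratio of −0.65 (−1.86 to 0.60) did not differ from 0 beyond counting error, and free RNA would give 32.4 and 20.5 CPM. Over all filtered barcodes, most of which are not lymphocytes, Nus1 had 76.2 CPM (73.2 to 79.3) in WT and 65.9 CPM (63.4 to 68.6) in N-LKO. Reads at the 3′ end need not cover the deleted part, so these levels do not check the deletion. The 10 dolichol and cis-prenyltransferase genes summed to 33 and 42 UMIs, at −0.52 (−1.21 to 0.19), and none reached 30 UMIs. Dpm3, a subunit of dolichol-phosphate mannose synthase, gave 8 and 9 UMIs.

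Over the 883 genes with at least 50 UMIs, the 10 highest and the 10 lowest ratios mostly belonged to genes known from other cell types. The highest were Ighg2b, Jchain, Igkc, S100a9, Igha, Hbb-bs, Ighm, Mt1, Lpl and H2-Ab1. Of these, 5 are immunoglobulin or J chain genes of plasma cells, and 150 of the 152 Ighg2b UMIs sat in 1 barcode. Igkc had 5 UMIs in WT and 1098 in N-LKO, of which 368 sat in 1 barcode. Mt1, a metallothionein, had 18.3 and 367 CPM, of which free RNA would give 33.2 and 324. The lowest were Sult2a8, Car3, Mup3, Acat1, Acadm, Fabp1, Serpina1e, Acaa1b, Gsta3 and Ass1, all abundant in hepatocytes. Among the 20 hepatocyte markers, 7 fell and none rose, against 11.2% and 11.6% of all genes. Mup20 and Apoe, the latter also made by macrophages, gave 0.0028 and 0.36. Fabp1, the liver fatty acid binding protein, had 9790 and 2090 CPM, and free RNA would give 11042 and 1781.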

How the data were processed

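Each library was made from cells released by collagenase perfusion, on a droplet system that reads the 3′ end of polyadenylated RNA. The authors deposited raw UMI counts for each gene in each barcode, not normalized and made with Cell Ranger (7.1.0 per the file headers). The submitters' processing notes also name Seurat and mm9, and whether intronic reads were counted is not given in the sources used here. Of the 32285 genes listed, 1792 had at least 30 UMIs over the NK barcodes.

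Groups came from the genotype labels. The members and gene lists were chosen with earlier results of these data known. UMIs were summed over the barcodes of a set, and ratios carry exact conditional binomial intervals, shares Clopper-Pearson intervals and differences of shares Newcombe intervals, at 95%. With 1 library per group there were no tests and no p-values. T barcodes had at least 2 CD3 or Themis UMIs, and endothelial ones at least 3 Stab2 or Ptprb UMIs. Free RNA was estimated from hepatocyte markers and the profile of barcodes under 500 UMIs, and is an upper estimate. Named were the selection genes, Nus1, per list the 2 genes with most UMIs and the 2 with the largest ratio among those with at least 30 UMIs, listed markers that check the label, and the 10 highest and 10 lowest genes. Genes named outside this rule are marked as chosen after their values were seen. Of the genes it picks, some with under 20 UMIs over both libraries were only counted within their lists. Doublets were scored with Scrublet in scanpy 1.11.5. Values were computed with scipy 1.17.1 and numpy 2.4.6 and tabulated with pandas 2.3.3 under Python 3.11.15, figures were drawn with matplotlib 3.10.9, and the ratio step was tested on simulated data. The alternatives tried changed barcode and gene filters, doublets, pseudocount, free RNA and scaling.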

Additional observations from a re-analysis of the deposited data

How the results depend on the processing

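Over 23 results and 280 alternative values, 229 stayed within the counting interval of the reported value, or within 1.5 times of a reported count. These 229 include alternatives that could not move a result. The minimum of UMIs per gene does not enter the summed lists, so changing it left every list ratio as reported. Taking ratios relative to the median of all genes shifted every list ratio by the same small amount. The count of 229 is therefore not by itself a measure of stability. With a minimum of 2000 UMIs, which kept 6 WT and 30 N-LKO NK barcodes, the log2 ratios of the NK marker, Ly49, cytokine and chemokine, and cytokine receptor lists turned to 0.47, 0.40, 1.04 and 0.40. The conventional NK, ILC1, cytotoxic, glycolysis, immediate early and respiratory chain lists moved to 1.43, 0.89, 0.84, 0.10, 0.41 and −0.59. The share differed by 0.426 points, the NK to T ratio was 1.59, the share with the conventional NK side alone differed by 3.33 points, and 47 genes rose and 49 fell. With a mitochondrial limit of 10%, which kept 22 and 16 barcodes, the share differed by −0.0151 points and the immediate early list stood at −0.027. The NK marker, Ly49, activating, cytokine receptor, cytotoxic, interferon, respiratory chain and trafficking lists stood at −0.72, −3.01, −0.45, −0.68, −0.47, −0.53, −0.97 and −0.25, barcodes with both sides differed by 3.98 points, and 10 genes rose and 37 fell. Subtracting free RNA moved the NK marker, cytokine receptor, glycolysis and trafficking lists to −0.59, −0.49, 0.52 and −0.12 and turned the respiratory chain list to 0.54.

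With a sum of at least 3 UMIs of the selection genes, the conventional NK list was at −0.35, the immediate early list at 0.51, and 51 genes rose and 95 fell among 549. With a minimum of 500 UMIs, the cytokine receptor list was at −0.039, the respiratory chain list at −1.26, and 349 genes fell. A gene minimum of 20 UMIs gave 356 and 329 genes, and 1 UMI gave 2586 and 2416. Asking for 2 UMIs of a side moved the difference in barcodes with both sides from 20.4 to 4.68 points, and leaving out side genes seen in endothelial barcodes, added later, to 0.380. Leaving out barcodes of other immune lists, also added later, gave −0.29 for the conventional NK list, −0.997 for the respiratory chain list, and 109 genes that rose. Leaving out Ccl5, also added later, turned the NK marker list to 0.017 and moved the cytokine and chemokine list to −0.026. The cause of the other shifts was not tested. No paired analysis was possible because each group had 1 library. The intervals cover counting error only, and spread between mice is not measured.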
